A study of Mus musculus with 3 samples.

Results

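The 52 genes described here act in mitosis: they encode cyclins and kinases that start it, motors and kinetochore proteins that move chromosomes, checkpoint proteins, condensins and the proteins that divide the cell. They were chosen by symbol and function, not by a threshold on their values, but with earlier results of these data known. All 52 had a row among the 11886 genes of the authors' deposited table, on 17 chromosomes. RNA came from cells sorted for green fluorescent protein (GFP) out of tumours in SCID mice (strain B6.CB17-Prkdcscid/SzJ, immunodeficient), from cells sorted in the same way out of tumours in WT C57BL/6 mice (immunocompetent), and from the cultured line itself. That line, mT3-2D-GFP, comes from a KPC pancreatic tumour, a mouse model of pancreatic cancer, on a C57BL/6 background; all 3 groups are this 1 line, which carries GFP. The SCID library pools equal RNA of 5 tumours and the WT library that of 6, and each of the 3 groups has a single library.

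The table holds log2 fold changes between the 3 libraries and no levels per library. A gene's value below is the mean over its RefSeq transcripts on that log2 scale, and a fold is a fold on the same deposited scale. With 1 library per group there is no replicate error, differences are not tested and no p-values appear. A gene was counted as higher or lower at 2-fold or more, a log2 value of 1 or beyond. The depth behind each value is unknown. As these are bulk libraries, fewer cells in division and less RNA per dividing cell cannot be told apart.

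Cells enter mitosis when cyclin B and the kinase CDK1 are activated, and leave it when the anaphase-promoting complex marks cyclin B and securin for destruction. In many cell types the RNA of these genes is made late in the cell cycle and is kept low in resting cells. The MuvB proteins, joined by B-MYB and FOXM1 in dividing cells and by p130 and E2F4 in resting cells (the DREAM complex), act on such promoters through the CHR element, and NF-Y acts through CCAAT boxes. MKI67, the Ki-67 antigen, is used in pathology to count dividing tumour cells.

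The promoters of these genes share short sequences that choosing genes by name did not use. RefSeq windows of 300 bases (250 before to 50 after the annotated start, build GRCm38.p6) were found for 43 of the 52 genes; Cdc25c, Ccna2, Smc4, Aurkb, Spc24, Incenp, Foxm1, Tpx2 and Kif20a were not matched. The windows of the 5 genes lowest in SCID tumours against the line, among those with a window, and of the highest gene are shown from 120 bases before the start to 50 after it. They lie at chr2:164769809-164769978 (+ strand), chr13:100786437-100786606 (- strand), chr11:40733388-40733557 (- strand), chr4:118437294-118437463 (- strand), chr7:122159315-122159484 (+ strand) and chr11:43425932-43426101 (- strand). Each is written 5' to 3' on the gene's strand, and capitals mark TTTGAA (a CHR motif) and CCAAT on either strand, so that TTCAAA and ATTGG are the same motifs read on the other strand.
Ube2c: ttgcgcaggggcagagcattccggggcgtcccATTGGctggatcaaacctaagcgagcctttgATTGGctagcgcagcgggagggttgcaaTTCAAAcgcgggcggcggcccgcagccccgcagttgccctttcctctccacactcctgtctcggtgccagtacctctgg
Ccnb1: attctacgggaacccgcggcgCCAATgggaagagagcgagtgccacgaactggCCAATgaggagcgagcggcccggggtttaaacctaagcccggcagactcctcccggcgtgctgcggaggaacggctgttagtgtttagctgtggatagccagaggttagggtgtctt
Hmmr: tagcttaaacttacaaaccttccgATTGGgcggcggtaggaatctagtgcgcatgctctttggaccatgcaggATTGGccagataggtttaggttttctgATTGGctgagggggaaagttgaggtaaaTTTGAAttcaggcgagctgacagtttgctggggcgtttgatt
Cdc20: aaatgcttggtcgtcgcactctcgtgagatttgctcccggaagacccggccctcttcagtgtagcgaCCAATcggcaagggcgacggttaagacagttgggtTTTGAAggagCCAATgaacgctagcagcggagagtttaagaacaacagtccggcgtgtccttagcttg
Plk1: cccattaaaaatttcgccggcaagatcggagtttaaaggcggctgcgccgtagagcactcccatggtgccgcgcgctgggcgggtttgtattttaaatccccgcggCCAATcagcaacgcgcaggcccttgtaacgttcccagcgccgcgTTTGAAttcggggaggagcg
Pttg1: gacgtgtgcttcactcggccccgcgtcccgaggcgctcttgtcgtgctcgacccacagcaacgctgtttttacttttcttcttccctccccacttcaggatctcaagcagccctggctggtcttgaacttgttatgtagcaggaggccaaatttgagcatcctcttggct

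TTTGAA was present in 32 of 43 of these genes (74.4%), against 1299 of the 9279 genes of the table with a window and 20.2% of all 27025 genes with one. CCAAT was present in 34 of 43 (79.1%), against 43.3% of the table's genes, and both motifs in 28 (65.1%), against 5.83%. Between 100 bases before and 50 after the start, TTTGAA lay in 30 of the 43 genes (69.8%), against 5.57% of the table's genes. In 29 genes it lay between 50 bases before and 50 after, a range not counted over all genes. Ube2c, Hmmr, Cdc20 and Plk1 hold both motifs in the stretch shown. Ccnb1 has a pair of CCAAT boxes and no TTTGAA, and has TTTAAA, a further CHR variant, 42 bases before its start. TTTAAA was present in 10 of 43 genes (23.3%), against 10.8% of the table's genes, and TTCGAA in 4 (9.30%), against 2.42%. Pttg1 held none of these motifs in its window, which covers only the inner of its 2 starts; the outer start, 43426248 on chromosome 11, lies outside it. The matches were counted on both strands with overlaps allowed, and a match is a stretch of letters, not a measured binding site. Among the 43 genes, the median log2 value in SCID tumours against the line was -1.14 for the 32 with TTTGAA and -1.17 for the 11 without. Lower by 2-fold or more were 78.1% and 63.6% of them in SCID tumours, and 65.6% and 54.5% in WT tumours. The 11 are not free of CHR variants: Birc5, Ccnb1, Cenpe and Gtse1 hold TTTAAA, and Bub1 and Cdc25b hold TTCGAA.

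**Figure D1:**
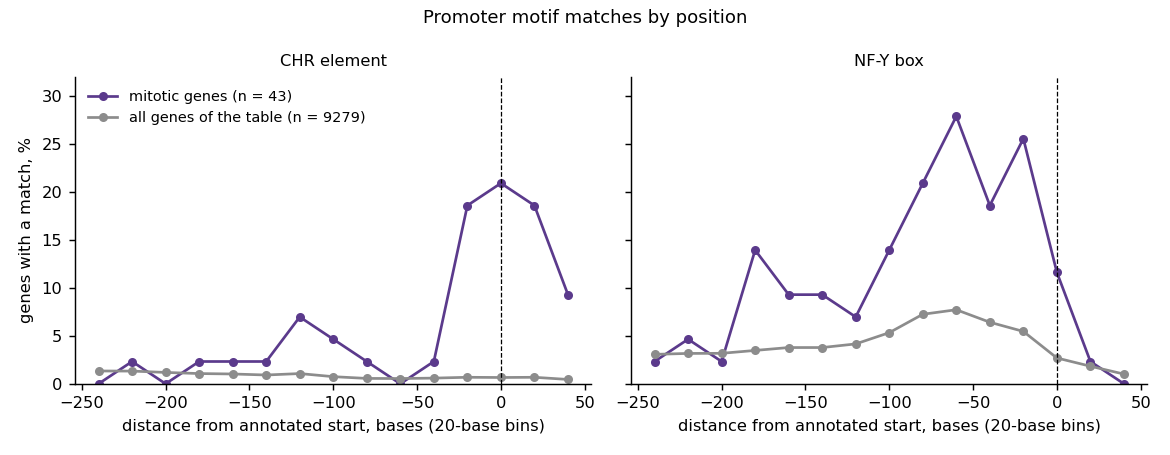
Share of genes (vertical axis, %) with a TTTGAA match (CHR element, left) or a CCAAT match (NF-Y box, right) in each 20-base bin of the promoter window, by distance from the annotated start, for 43 mitotic genes (purple) and the 9279 genes of the table with a window (grey; the first window of each gene). The CHR share of the mitotic genes is highest, at 20.9%, in the bin around the start, and the CCAAT share, at 27.9%, in the bin centred 60 bases before it, where the table's genes have 7.73%.

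In SCID tumours 51 of the 52 genes were below 0 against the cultured line, where 51.7% of all genes were. Lower by 2-fold or more were 38 of them (73.1%), against 2.62% of all genes, and none was higher by 2-fold, where 3.65% of all genes were. The median log2 value was -1.15, a 2.22-fold lower level in SCID tumours, with an interquartile range from -1.31 to -0.96; the median of all genes was -0.02. In WT tumours 51 of 52 were below 0 against the line, where 51.4% of all genes were. There 33 genes (63.5%) were lower by 2-fold or more, against 2.03% of all genes, and none was higher, where 4.12% of all genes were. These values had a median of -1.07, an interquartile range from -1.17 to -0.94 and an all-gene median of -0.01. Of the 52 genes, 47 in SCID tumours and 48 in WT tumours lay within the lowest 5% of all genes. Both comparisons use the same library of the cultured line, so they are not independent of each other.

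Markers of other cells and of tissue handling moved in the same comparisons. Macrophage markers ran from -0.06 to 1.02 in SCID tumours and from 0.77 to 2.77 in WT tumours against the line, for the 6 of 17 listed markers with a row. Fibroblast markers ran from 0.63 to 2.61 in SCID tumours and from 1.04 to 1.90 in WT tumours (3 of 13 with a row). Endothelial markers ran from 0.80 to 1.63 in SCID tumours and from 0.93 to 1.66 in WT tumours (3 of 10 with a row). Of 15 immediate-early and dissociation genes with a row, 10 were higher by 2-fold or more in SCID tumours and 10 in WT tumours, and only the tumour cells are labelled as sorted. Of 9 epithelial markers, 6 were below 0 in SCID tumours (median -0.31) and 6 in WT tumours (median -0.19). Among them Epcam was at 1.25 in SCID tumours and 1.59 in WT tumours, and Krt19 at -1.01 and -0.95. The part of other cells and of handling in the mitotic values was not tested.

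Genes that start mitosis were low throughout. All 8 of this group, the cyclins, CDK1, its activating phosphatases and their regulators, were lower by 2-fold or more in SCID tumours (median -1.28), and 6 of 8 were in WT tumours (median -1.12). Ccna2 (cyclin A2, which acts from S phase into early mitosis) was at -1.57 in SCID tumours and -1.48 in WT tumours against the line. Ccnb1 (cyclin B1, the CDK1 partner that drives entry) was at -1.52 in SCID tumours and -1.53 in WT tumours, 2.87-fold and 2.88-fold lower; the table places it on chromosome 13 from 100778739 to 100786486. Cdk1, the kinase itself, was at -1.32 in SCID tumours and -1.17 in WT tumours. Foxm1, the transcription factor that drives many genes of this set, was at -1.16 in SCID tumours and -1.05 in WT tumours. Ccnb2 (cyclin B2), the highest of the group in both, was at -1.02 in SCID tumours and -0.95 in WT tumours, so cyclin B1 lay farther below the line than cyclin B2.

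The kinases followed the same direction. Aurkb (Aurora B, the kinase of the chromosomal passenger complex, which corrects wrong spindle attachments) was at -1.60 in SCID tumours and -1.38 in WT tumours. The table places Aurkb on chromosome 11 from 69045637 to 69051664. Plk1 (Polo-like kinase, needed for centrosome maturation and entry) was at -1.43 in SCID tumours and -1.36 in WT tumours. Ttk (MPS1, the kinase that starts checkpoint signalling) was the highest of the 5 kinase and activator genes, at -0.85 in SCID tumours and -0.98 in WT tumours. Its transcripts differed, at -1.22 and -0.49 in SCID tumours and -1.21 and -0.75 in WT tumours. The 3 partners of Aurora B in the passenger complex ran from Birc5 (survivin) at -1.27 in SCID tumours and -1.15 in WT tumours to Incenp, the scaffold, at -0.97 and -0.82.

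Spindle motors were lower by 2-fold or more in 7 of 8 cases in SCID tumours (median -1.23) and in 8 of 8 in WT tumours (median -1.10), counting with the kinesins Hmmr, a spindle-associated protein also known as a hyaluronan receptor. Hmmr was the lowest of them, at -1.45 in SCID tumours and -1.31 in WT tumours. The highest in SCID tumours was Kif20a, a kinesin of the central spindle, at -0.93, a mean of transcripts from -1.51 to -0.48. Its rank therefore depends on the transcript taken. In WT tumours the highest was Kif23, the kinesin of the centralspindlin complex, at -1.0005. Cytokinesis genes covered a narrow range. In SCID tumours they ran from Anln (anillin, the scaffold of the contractile ring) at -1.08 to Ect2, which activates RhoA at the cell equator, at -1.02; in WT tumours they ran from Prc1, a bundler of central spindle microtubules, at -1.11 to Ect2 at -0.97.

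Kinetochore and condensin genes lay on both sides of the 2-fold threshold. Of 9 kinetochore and centromere genes, 5 in SCID tumours (median -1.004) and 3 in WT tumours (median -0.89) were lower by 2-fold or more. Spc24, a subunit of the NDC80 complex that grips microtubules, was the lowest, at -1.30 in SCID tumours and -1.27 in WT tumours. Cenpn, which reads the centromeric nucleosome, was at -0.76 in SCID tumours and -0.89 in WT tumours, and Cenpk, of the same inner kinetochore network, at -0.82 and -0.74. Cenpa, the centromeric histone itself, was at -1.004 in SCID tumours and -0.82 in WT tumours; Cenpa and Cenpk are each listed by 1 transcript annotated as non-coding.

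Among 7 genes of condensin and chromosome structure, 3 were lower by 2-fold or more in SCID tumours and 3 in WT tumours. Mki67 was at -1.33 in SCID tumours and -1.15 in WT tumours, 2.52-fold and 2.22-fold lower. Top2a (topoisomerase II alpha, which untangles sister chromosomes) was at -1.22 in SCID tumours and -1.09 in WT tumours. Ncapg, a HEAT-repeat subunit of condensin I and the lowest of this group in WT tumours, was at -1.27 in SCID tumours and -1.18 in WT tumours. Ncaph, the kleisin subunit of condensin I, was at -0.74 in SCID tumours and -0.69 in WT tumours, and Smc2, the ATPase core of both condensins, at -0.50 and -0.64. Smc2 and Ncaph thus stood nearer to the line than Mki67 and Top2a in both tumour groups. The Smc2 value averages transcripts that differ, at -0.94 and -0.05 in SCID tumours and -0.89 and -0.38 in WT tumours.

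Genes of anaphase held both extremes. Ube2c, the ubiquitin-conjugating enzyme of the anaphase-promoting complex, had the lowest value of all 52, at -1.62 in SCID tumours and -1.56 in WT tumours, 3.07-fold and 2.96-fold lower. It ranked 52nd lowest of 11886 genes in SCID tumours and 66th in WT tumours, and the table places it on chromosome 2 from 164769929 to 164772902. Pttg1 (securin, the inhibitor of the protease that separates sister chromosomes) was the only gene of the 52 above 0, at 0.25 in SCID tumours and 0.32 in WT tumours. Among checkpoint genes, Bub1, a kinase at the kinetochore, was at -1.23 in SCID tumours and -1.20 in WT tumours, and Mad2l1, the inhibitor of CDC20, at -1.17 and -1.21. Bub3, which carries BUB1 and BUBR1 to the kinetochore, was at -0.003 in SCID tumours and -0.23 in WT tumours.

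**Figure D2:**
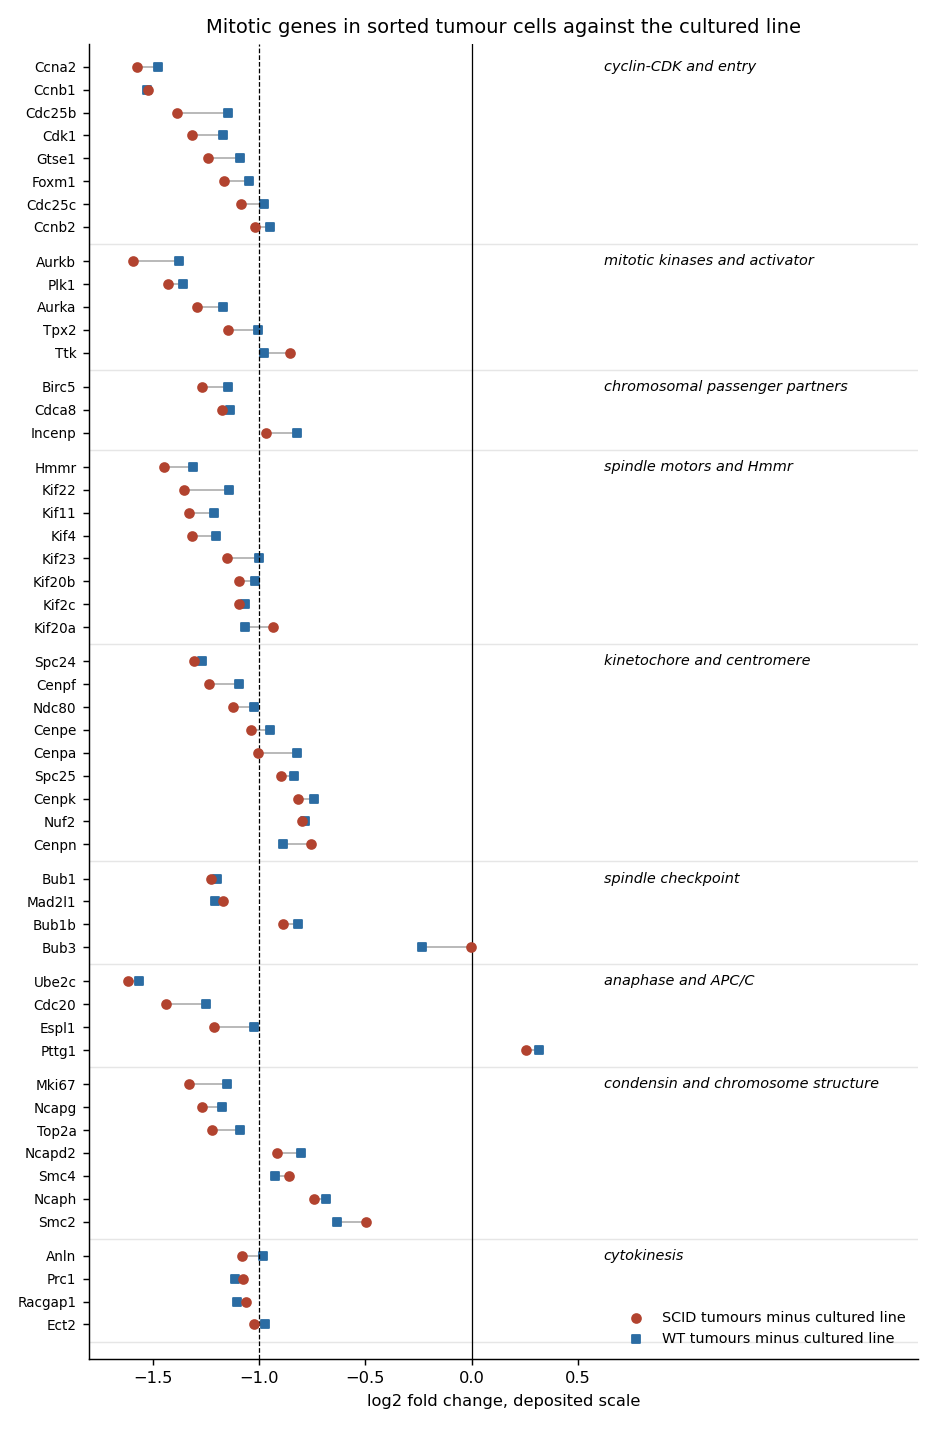
log2 fold change on the deposited scale (horizontal axis) of each of the 52 mitotic genes, grouped by role, in SCID tumours against the cultured line (red circles) and WT tumours against the line (blue squares); the dashed line marks a 2-fold lower value. All but Pttg1 lie left of 0 in both, from Ube2c at -1.62 in SCID tumours to Bub3 at -0.003.

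The values of Pttg1 and Bub3 are means of transcripts that differ. For Pttg1, NM_013917 was at 0.84 in SCID tumours and 0.67 in WT tumours against the line, and NM_001131054, which starts farther upstream, at -0.33 and -0.04. For Bub3, NM_009774 was at -0.78 in SCID tumours and -0.74 in WT tumours, and NM_001317350 at 0.77 and 0.27; the pair has starts at 131560370 and 131560494 on chromosome 7. Spc25, an NDC80 complex subunit, had the widest spread in SCID tumours, from -1.83 for NM_001199124 to 0.06 for NM_001305800, and from -1.51 to -0.06 for the same pair in WT tumours. Of 76 transcripts of the 52 genes, 3 in SCID tumours and 2 in WT tumours were above 0, and all of these belong to Bub3, Pttg1 and Spc25. In all, 34 genes had 1 transcript and 18 had 2 to 4. The SD between transcripts of 1 gene, pooled over these 18, was 0.48 in SCID tumours and 0.35 in WT tumours, against 0.33 and 0.31 over the 3598 genes of the table with 2 or more; it describes transcripts, not animals. How reads were shared among transcripts, or with copies of a gene elsewhere, is not given in the sources used here.

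**Figure D3:**
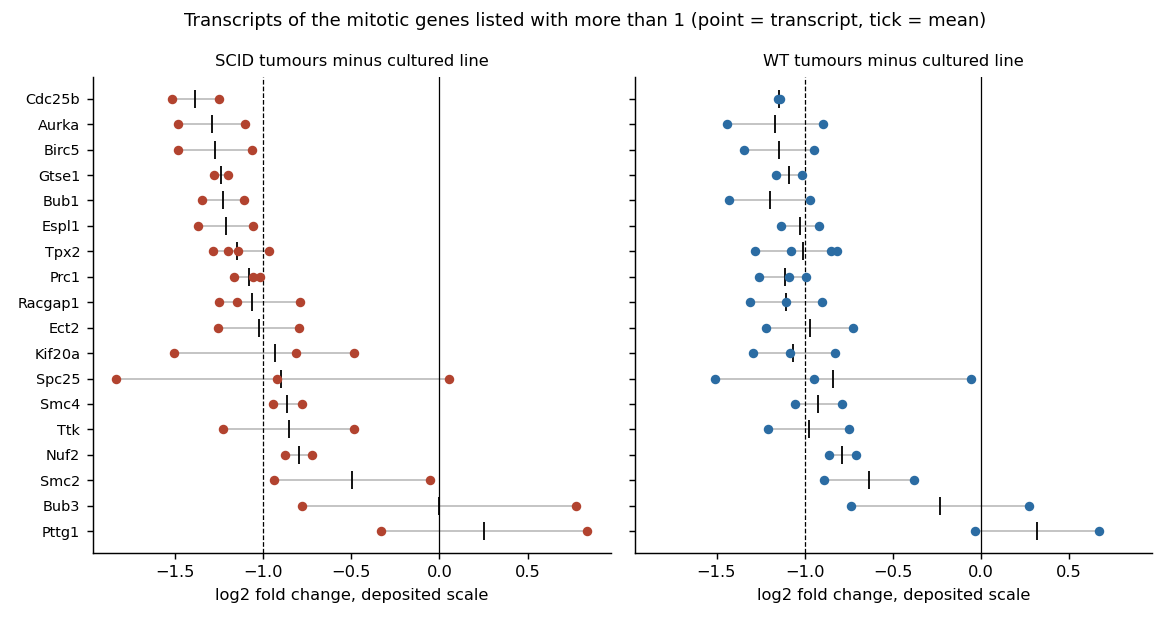
log2 fold change of every transcript (points) of the 18 mitotic genes with more than 1, with the gene mean (vertical tick), in SCID tumours (left) and WT tumours (right) against the cultured line. Most genes have all points below 0, while Bub3 and Pttg1 have points on both sides of 0 in both panels and Spc25 in SCID tumours, from -0.78 to 0.77 for Bub3 in SCID tumours.

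A wider list held 110 mitotic genes outside the 52, of which 107 had a row; 31 were lower by 2-fold or more in SCID tumours (median -0.54) and 19 in WT tumours (median -0.55), and none was higher by 2-fold. The lowest were Ccnf (cyclin F), at -1.45 in SCID tumours and -1.40 in WT tumours, with Nek2, a centrosome kinase, at -1.42 in SCID tumours and Fbxo5 (EMI1, an inhibitor of the anaphase-promoting complex) at -1.33 in WT tumours. The highest was Kif2a, a microtubule-depolymerising kinesin, at 0.47 in SCID tumours and 0.44 in WT tumours, followed by Kif3a, a kinesin of ciliary transport, at 0.38 in SCID tumours and by Hjurp, the chaperone of CENP-A, at 0.31 in WT tumours. Motors and spindle factors had the lowest medians of this list, at -1.07 in SCID tumours (13 of 23 lower by 2-fold or more) and -0.93 in WT tumours (8 of 23). These motors still ran from -1.42 to 0.47 in SCID tumours. The 15 genes listed with the anaphase-promoting complex, its inhibitor Fbxo5 and its E2 enzyme Ube2s among them, had medians of -0.16 in SCID tumours and -0.21 in WT tumours; the 1 gene past 2-fold was Fbxo5 in both. The 13 cohesin genes and regulators had medians of -0.20 in SCID tumours and -0.27 in WT tumours, with a range from -1.34 to 0.26 in SCID tumours. The 17 further centromere genes had medians of -0.61 in SCID tumours and -0.63 in WT tumours.

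Genes of other cell cycle steps had medians on either side of the mitotic one. Of 67 replication-dependent histone genes, found by symbol and made in S phase, 64 were lower by 2-fold or more in SCID tumours (median -1.60). In WT tumours 64 were (median -1.69), and both medians lay below the mitotic ones. The libraries are poly(A) libraries, and how much of the histone RNA they capture was not measured. Of 48 genes of DNA replication and the G1/S transition, 10 were lower by 2-fold or more in SCID tumours (median -0.79) and 8 in WT tumours (median -0.72), with Rrm2, the ribonucleotide reductase subunit, at -1.82 and -1.86, and Prim1, a primase subunit, at -1.35 and -1.27. The highest of them was Cdk2, the kinase of S phase entry, at 0.02 in SCID tumours and -0.03 in WT tumours. The median of the mitotic genes was thus lower than that of the replication genes in both tumour groups; no test of that difference was possible with 1 library each. Among 19 genes of cell cycle transcription, 3 passed 2-fold in SCID tumours and 3 in WT tumours, all of them lower, and 17 of 19 were below 0 in each. Mybl2 (B-MYB) was at -1.68 in SCID tumours and -1.4999 in WT tumours, and E2f7, a repressor of the E2F family, at -1.26 and -1.19. Rbl2 (p130, the pocket protein of DREAM) was at 0.22 in SCID tumours and 0.25 in WT tumours, and E2f5, an E2F partner of the pocket proteins, at 0.17 and 0.04; these were the 2 genes above 0. E2f4, the other partner of p130 in resting cells, was at -0.69 in SCID tumours and -0.65 in WT tumours.

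Of 15 measured CDK inhibitors and genes linked to arrest, 4 were higher by 2-fold or more in SCID tumours and 5 in WT tumours. The 6 CDK inhibitors among them had medians of 0.02 in SCID tumours and -0.06 in WT tumours, with 3 above and 3 below 0 in each, and the 9 quiescence genes medians of 0.71 and 0.82. Gadd45a, a stress-induced gene, was at 1.78 in SCID tumours and 1.54 in WT tumours, and Btg2, an antiproliferative p53 target, at 1.66 and 1.54. Cdkn1a (p21), the 1 CDK inhibitor higher by 2-fold or more, was at 1.29 in SCID tumours and 1.45 in WT tumours. Cdkn2c (p18) was at -1.01 in SCID tumours and -0.81 in WT tumours, and Cdkn2d (p19) at -0.71 and -0.59. Members of the list thus stood on both sides of 0. Immediate-early and dissociation genes were also higher in these comparisons, with medians of 1.64 in SCID tumours and 1.68 in WT tumours. The part of handling in the values of this list was not tested.

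**Figure D4:**
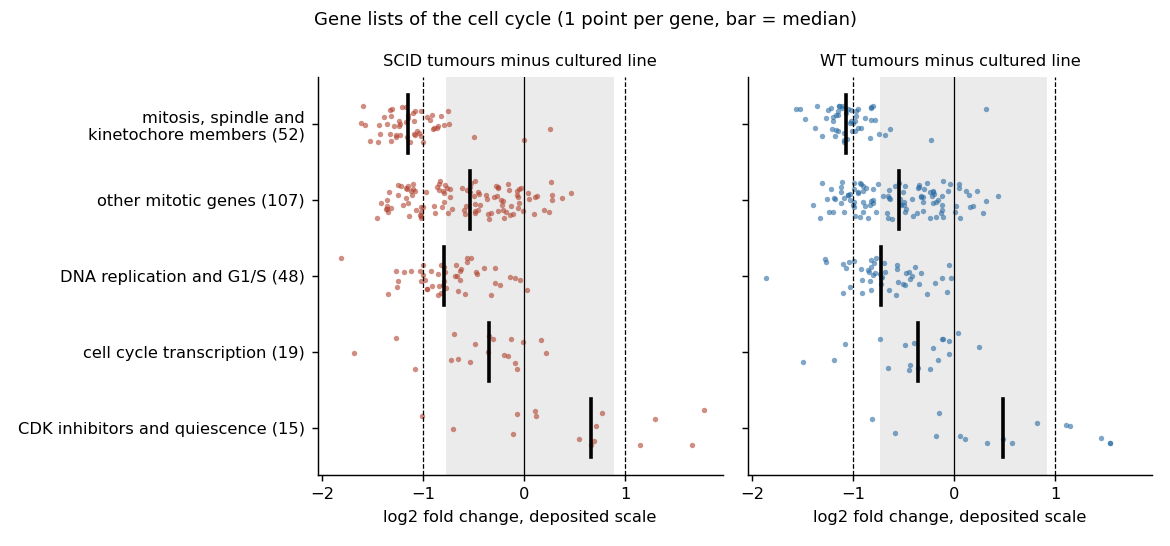
log2 fold change (horizontal axis) of each measured gene (points) of 5 cell cycle lists, with the median (black bar), in SCID tumours (left) and WT tumours (right) against the cultured line; grey spans the middle 90% of all genes and dashed lines mark 2-fold. Of the lists drawn, the mitotic genes have the lowest medians, -1.15 in SCID tumours and -1.07 in WT tumours; the pooled CDK inhibitor and quiescence list has medians of 0.66 and 0.49, with CDK inhibitors alone at 0.02 and -0.06.

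Between the SCID and the WT tumours none of the 52 mitotic genes reached 2-fold in either direction, where 0.32% of all genes did. All 52 lay within 0.25 of 0 on the log2 scale, as did 91.5% of all genes. In SCID minus WT 42 of 52 genes (80.8%) were below 0, against 51.5% of all genes, with a median of -0.09, a 1.07-fold lower level in SCID tumours; the median of all genes was -0.004 and their lower quartile -0.08, so the mitotic median lay just below that quartile. This comparison is the difference of the pair above, so its values add nothing measured separately. Of the 52 genes, 50 (96.2%) lay closer to 0 than 0.22, the SD between transcripts of 1 gene in this comparison, as did 89.1% of all genes.

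The lowest values in SCID against WT tumours were those of Cdc25b, a phosphatase that activates CDK1, at -0.24, Aurkb at -0.22, Kif22, a chromosome-arm kinesin, at -0.21, Cdc20, the activator of the anaphase-promoting complex, at -0.19 and Espl1 (separase) at -0.19. Mki67 was at -0.18, Cdk1 at -0.15, Foxm1 at -0.12, Plk1 at -0.07 and Ccnb1 at 0.01. The highest were Bub3 at 0.23, Smc2 at 0.14, Kif20a at 0.13, Cenpn at 0.13 and Ttk at 0.12. Of these, Bub3 (-0.04 and 0.50), Smc2 (-0.05 and 0.33), Kif20a (-0.21 to 0.35) and Ttk (-0.02 and 0.26) average transcripts on both sides of 0. Of the 34 genes with 1 transcript, 31 were below 0. By role, medians ran from -0.12 for the anaphase group to -0.01 for cytokinesis and 0.005 for the checkpoint group. In the cytokinesis group, Racgap1 (-0.25 to 0.52) and Prc1 (-0.07 to 0.25) also had transcripts on both sides of 0. Macrophage markers were lower in SCID tumours beside these values: all 6 with a row were below 0, from -1.88 to -0.80, and 4 passed 2-fold. Their part in the mitotic values was not tested.

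**Figure D5:**
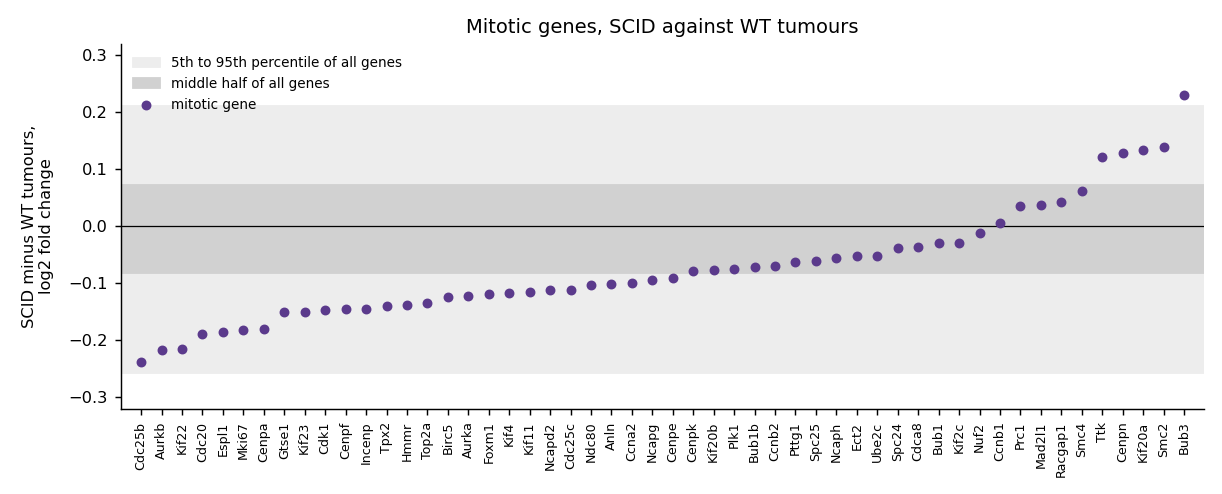
log2 fold change in SCID tumours against WT tumours (vertical axis) of the 52 mitotic genes in rising order, with the interquartile range (dark grey) and middle 90% (light grey) of all genes. Values run from -0.24 for Cdc25b to 0.23 for Bub3, and 42 of 52 lie below 0.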

How the data were processed

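Per the labels' protocols, stranded poly(A) libraries were sequenced with paired reads of 75 bases. The submitters' processing notes list BWA, Partek, R 3.5.1, DESeq2 1.20.0 and mm9, without saying what each was used for. The authors' deposited values are fold changes for 17910 RefSeq transcripts, read here as log2, since no log base is named. Shrinkage and row filters are not stated. In all 17910 transcripts the last column was the difference of the other columns within 1e-09, and it was read as SCID minus WT.

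Transcripts were averaged per gene symbol (Python 3.11.15, numpy 2.4.6, pandas 2.3.3). Trend removal was tried on simulated data that held a GC trend of the form fitted and no length trend. That trial does not show how well it works on these data. Coordinates are 1-based; 51 of the 52 genes start within 1000 bases of RefSeq on GRCm38.p6, not the mm9 of the notes. In 32 of 43 genes the promoter window holds transcript sequence of the same strand.

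The 52 genes and all lists were chosen with earlier results of these data known. Named genes are the 5 lowest and 5 highest, the extremes of each role group and 6 fixed genes; of other lists, the 2 lowest and 2 highest. Others (Cdkn1a, Epcam, Krt19, Cenpa, E2f4, Ube2s and the Spc25 transcripts) were chosen after their values were seen. Lymphocyte markers (2 of 13 with a row) had medians of 0.23 in SCID tumours and 0.22 in WT tumours against the line.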

Additional observations from a re-analysis of the deposited data

How the results depend on the processing

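The member medians stayed below 0 when values were centred on the median gene, when the transcript farthest from or nearest to 0 stood for a gene, with coding transcripts only, with the 34 genes of 1 transcript, without the member farthest from 0, and after GC content and transcript length were regressed out. They ran from -1.23 to -1.09 for SCID minus line, from -1.15 to -0.99 for WT minus line and from -0.12 to -0.08 for SCID minus WT. Under the same settings, with all 52 genes, the count lower by 2-fold or more ran from 35 to 41 in SCID tumours and from 25 to 37 in WT tumours. At a 1.5-fold threshold it was 49 in SCID tumours and 50 in WT tumours, and at a 4-fold threshold 0 in both. The shares of all genes at these other thresholds were not computed, so these counts have no background beside them. A stricter threshold cannot count more genes, and the lowest of the 52 genes was at -1.62 in SCID tumours and -1.56 in WT tumours. No value past 2-fold changed sign. With the transcript nearest to 0, 3 genes in SCID tumours and 8 in WT tumours were no longer past 2-fold. No paired analysis was possible because each group has 1 library. Spread between tumours was not measured and the read count behind each value is unknown, so the error of any single value cannot be given.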

Other observations

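Values are given here by promoter motif, first for genes outside the 52. Of 91 other mitotic genes with a window, 31 held TTTGAA, with median log2 values of -1.07 in SCID tumours and -0.93 in WT tumours against the line, and 18 and 9 of them were lower by 2-fold or more. The 60 without it had medians of -0.35 in SCID tumours and -0.34 in WT tumours, with 8 and 6 past 2-fold. Over all genes of the table with a window, 4.93% of the 1299 with TTTGAA were lower by 2-fold or more in SCID tumours. Of the 7980 without it, 1.72% were. In WT tumours these shares were 3.46% and 1.18%. The mitotic genes are among them and make up most of the TTTGAA genes past 2-fold. In SCID tumours 25 of those 64 genes were of the 52 and 18 were other mitotic genes. In WT tumours 21 and 9 of 45 were. Without TTTGAA, 7 and 8 of 137 were in SCID tumours, and 6 and 6 of 94 in WT tumours.

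The 10 genes nearest to the mitotic median, by Euclidean distance over the values of SCID and WT tumours against the line, were Gcnt3, Knl1, Rad51ap1, Ticrr, Dpcr1, Gmnn, Suox, Sephs2, Mcm3 and Cdkn3. Knl1, a kinetochore scaffold, was at -1.16 in SCID tumours and -1.05 in WT tumours, and Gcnt3, a mucin glycosyltransferase, at -1.14 and -1.08. Of the 10, 4 stood in the lists: Knl1 and Cdkn3 among 107 other mitotic genes, Gmnn and Mcm3 among 48 replication genes, of 11886 in all. The 10 were picked by closeness to the mitotic values, and genes outside the lists were not sorted by function.

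In these poly(A) libraries the median of the 67 replication-dependent histone genes in SCID minus WT was 0.06. That of the mitotic genes was -0.09. How much of the histone RNA such libraries capture was not measured.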
